A study of Mus musculus with 9 samples.

Results

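Fibro-adipogenic progenitors are the resident stromal cells of skeletal muscle, marked by the receptor Pdgfra, and they lay down much of the matrix around the fibres. They support satellite cells after injury, and in disease they can turn into fat or scar-forming cells. The 10 genes by which these cells and other fibroblasts are recognised, read here as a measure of stromal content, were Pdgfra, Dcn, Lum, Dpt, Pcolce, Gsn, Ly6a, Cd34, Apod and Smoc2. They were taken by name from the table of counts, by a rule that names them and sets no threshold on values, though with earlier results of these data known. All 10 were among its 24062 gene symbols, and all 10 were among the 12989 genes with enough counts to be tested.

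The samples were whole gastrocnemius, a calf muscle, from mice of a 129Sve/C57BL/6 mixed background at 3 months of age. There were 3 RNA sequencing libraries from each of 3 genotypes: wild type (WT), and 2 kinds of carrier of 1 altered copy of Bub1b, BubR1+/L1002P (hetL1002P) and BubR1+/X753 (hetX753). Bub1b encodes BubR1, which delays anaphase until chromosomes are attached to the spindle, and such alleles are linked to mosaic variegated aneuploidy. No treatment, transgene or Cre is named. The labels name no animal behind a library, so that p-values reflect only how these samples spread, which may be technical.

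Each library held 19768149 to 33977252 counted reads. Levels in CPM are counts divided by the library total after scaling. Bub1b itself had 11 to 21 counts per library in WT, 2 to 10 in hetL1002P and 5 to 8 in hetX753. The 15 muscle fibre markers summed to 245649.7 to 326897 CPM over the libraries, and none was at 0, so the tissue matched its label. Each of the 10 stromal markers was detected in every library, down to 209 counts for Pdgfra. WT replicate 3 and hetL1002P replicate 3 stood apart, at -47.5 and -32.5 along the first principal component, which held 39.7% of the variance, against -9.52 to 28.8 for the other 7 libraries. The comparisons and the spread are also given without them where that changes a call or a pattern. Levels in WT 3 and hetL1002P 3 also leaned most to short transcripts. The slope of relative log2 level on log2 transcript length, fitted with GC content, was -0.284 and -0.122 there. In the others it was -0.0609 to 0.167, highest in hetL1002P 2. It was -0.284 to -0.00750 in WT and 0.0294 to 0.116 in hetX753, so genotype and this gradient cannot be fully told apart.

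The markers differed widely in abundance. In RPKM, CPM divided by the transcript length in kilobases, the mean level over the 9 libraries was 432 ± 90.5 (SD, n = 9, as for the values that follow) for Gsn, a severing and capping protein of actin filaments that fibroblasts express strongly but that is not restricted to them. Dcn, the collagen-binding proteoglycan decorin, followed at 53.2 ± 15.5 RPKM, and Ly6a, the surface antigen Sca-1, at 40.0 ± 9.14 RPKM. Smoc2, a secreted calcium-binding matricellular protein, stood at 26.3 ± 4.62 RPKM and Dpt, the matrix protein dermatopontin, at 24.6 ± 4.72 RPKM. Apod, a lipid-binding lipocalin of fibroblasts and nerve sheath cells, stood at 16.8 ± 5.01 RPKM, and Cd34, a sialomucin shared with endothelium, at 15.5 ± 2.11 RPKM. The lowest were Pcolce, which enhances removal of the C-terminal propeptide of procollagen (13.9 ± 2.56 RPKM), Lum, the proteoglycan lumican (5.72 ± 1.74 RPKM), and Pdgfra, the receptor for platelet-derived growth factor (2.27 ± 0.869 RPKM).

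Gsn stood clear of the rest, and Pdgfra and Lum stood below the other 8. Between Dcn and Ly6a, between Smoc2 and Dpt, and among Apod, Cd34 and Pcolce the levels differed by less than the spread between libraries. With the length of all merged exons in place of the longest transcript, Dpt (24.6 RPKM) moved above Smoc2 (15.0 RPKM), and Pcolce (9.33 RPKM) above Cd34 (6.50 RPKM). The top of the order, Gsn, Dcn and Ly6a, and its foot, Lum and Pdgfra, were the same under both lengths.

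In position, Dcn and Lum lie side by side on chromosome 10 (GRCm38, GENCODE M21), Dcn from 97479609 to 97518143 and Lum from 97565128 to 97572703, with 46984 bp and no annotated gene between them. Both encode small leucine-rich proteoglycans that bind collagen fibrils. Pdgfra (75152292 to 75198215) and Pcolce (137605103 to 137613784) lie on chromosome 5, and Dpt (164796644 to 164824266) and Cd34 (194938819 to 194961279) on chromosome 1. Gsn lies on chromosome 2 from 35256380 to 35307892, Ly6a on chromosome 15 from 74994877 to 74998031, Apod on chromosome 16 from 31296192 to 31314808 and Smoc2 on chromosome 17 from 14279506 to 14404790. All are protein-coding. Exons of Pdgfra and Cd34 overlap predicted genes on the other strand (and Pdgfra a microRNA gene on its own), and those of Pcolce a predicted gene there and Fbxo24 on the same strand. Fbxo24 had at most 9 counts in a library, against at least 583 for Pcolce. Ly6a belongs to a family of similar neighbouring genes, so its counts are less certain.

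Of the 10 genes, 6 have a promoter in the RefSeq table (GRCm38.p6). The 120 bases before the start site are shown for the 2 genes that stood lowest against WT in hetX753, Apod and Pcolce, and of Cd34, which stood nearest to its WT level. They run 5′ to 3′ on the gene's strand, and capitals mark a GC box read on the other strand.
Apod (chr16:31314809-31314928, minus strand): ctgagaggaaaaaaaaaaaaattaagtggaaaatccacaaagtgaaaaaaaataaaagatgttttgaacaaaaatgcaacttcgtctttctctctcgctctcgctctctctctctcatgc
Pcolce (chr5:137611405-137611524, minus strand): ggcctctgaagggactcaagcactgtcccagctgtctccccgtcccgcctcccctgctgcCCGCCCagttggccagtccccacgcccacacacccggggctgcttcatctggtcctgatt
Cd34 (chr1:194938701-194938820, plus strand): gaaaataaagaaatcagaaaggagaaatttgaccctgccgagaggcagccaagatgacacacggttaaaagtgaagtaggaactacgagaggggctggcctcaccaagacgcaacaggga
In the 250 bases before the start, G and C made up 36.4% of bases in Apod, 58.8% in Pcolce and 46.4% in Cd34, against a median of 52.4% over 32851 promoters. The GC box (GGGCGG, either strand), found in 32.7% of all promoters, occurred in Pcolce and at all 3 start sites of Gsn. The TATA box (TATAAA, either strand; 12.4% of all promoters) was in none of the 6 genes, and the CCAAT box (CCAAT, either strand; 33.8%) only in Gsn. These are matches of letters only, and no match overlapped that of another motif.

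Apod was the 1 marker that passed the test, and it was lower in hetX753 than in WT. It had 46.4, 48.6 and 41.8 CPM in the WT libraries, 34.2, 42.8 and 27.6 CPM in hetL1002P, and 21.3, 24.3 and 25.7 CPM in hetX753. All 3 hetX753 libraries lay below all 6 others, while the highest hetL1002P library lay above the lowest WT library. In hetX753 Apod fell 1.92-fold against WT (log2 -0.94, SE 0.16, edgeR quasi-likelihood test, Benjamini-Hochberg adjusted p = 0.0330), from 45.6 ± 3.48 to 23.8 ± 2.26 CPM (SD, n = 3 each). It was 42nd among all genes by p, and 0.508% of genes tested passed in this comparison (0.177% in the lower direction). In bulk tissue fewer cells of a type cannot be told apart from less RNA per cell.

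The call of Apod, though not its direction, depended on which libraries were fitted. Its log2 value was -0.82 or lower in each of 17 alternative fits, and its adjusted p was 1.42e-05 with DESeq2, which called 5.08% of genes, and 0.0102 in edgeR with WT 3 and hetL1002P 3 both left out, which called 2.58%. The call was kept in 2 of 9 edgeR fits that left out 1 library, those without hetL1002P 2 (0.0227) and hetL1002P 3 (0.00685). Those 2 fits called 70 and 669 genes, and the others without 1 library called 0 to 34. Apod's call was lost without WT 1 (0.0994), WT 2 (0.136), WT 3 (0.0940), hetL1002P 1 (0.0701), hetX753 1 (0.105), hetX753 2 (0.122) or hetX753 3 (0.126). It was also lost with scaling by library totals alone (0.132) and after each library's trend on transcript length and GC was taken out (0.0709).

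Pcolce stood lower in hetX753 as well, short of the threshold. Its level was 38.5, 44.6 and 41.8 in WT, 38.6, 40.8 and 32.5 in hetL1002P and 28.7, 28.5 and 26.9 CPM in hetX753. The hetX753 libraries were all below the other 6 and close to each other. Against WT the log2 fold change was -0.57 (SE 0.12, adjusted p = 0.0689, edgeR). It passed with DESeq2 (adjusted p = 6.89e-04), with edgeR on the 2 genotypes alone (0.0384), with hetL1002P 3 left out (0.0168) and with WT 3 left out as well (0.0255), and over all fits the adjusted p ran up to 0.292. Pcolce acts together with the proteinase encoded by Bmp1, which stood at log2 0.04 (SE 0.19), and its paralog Pcolce2 stood at -0.17 (SE 0.30).

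**Figure D1:**
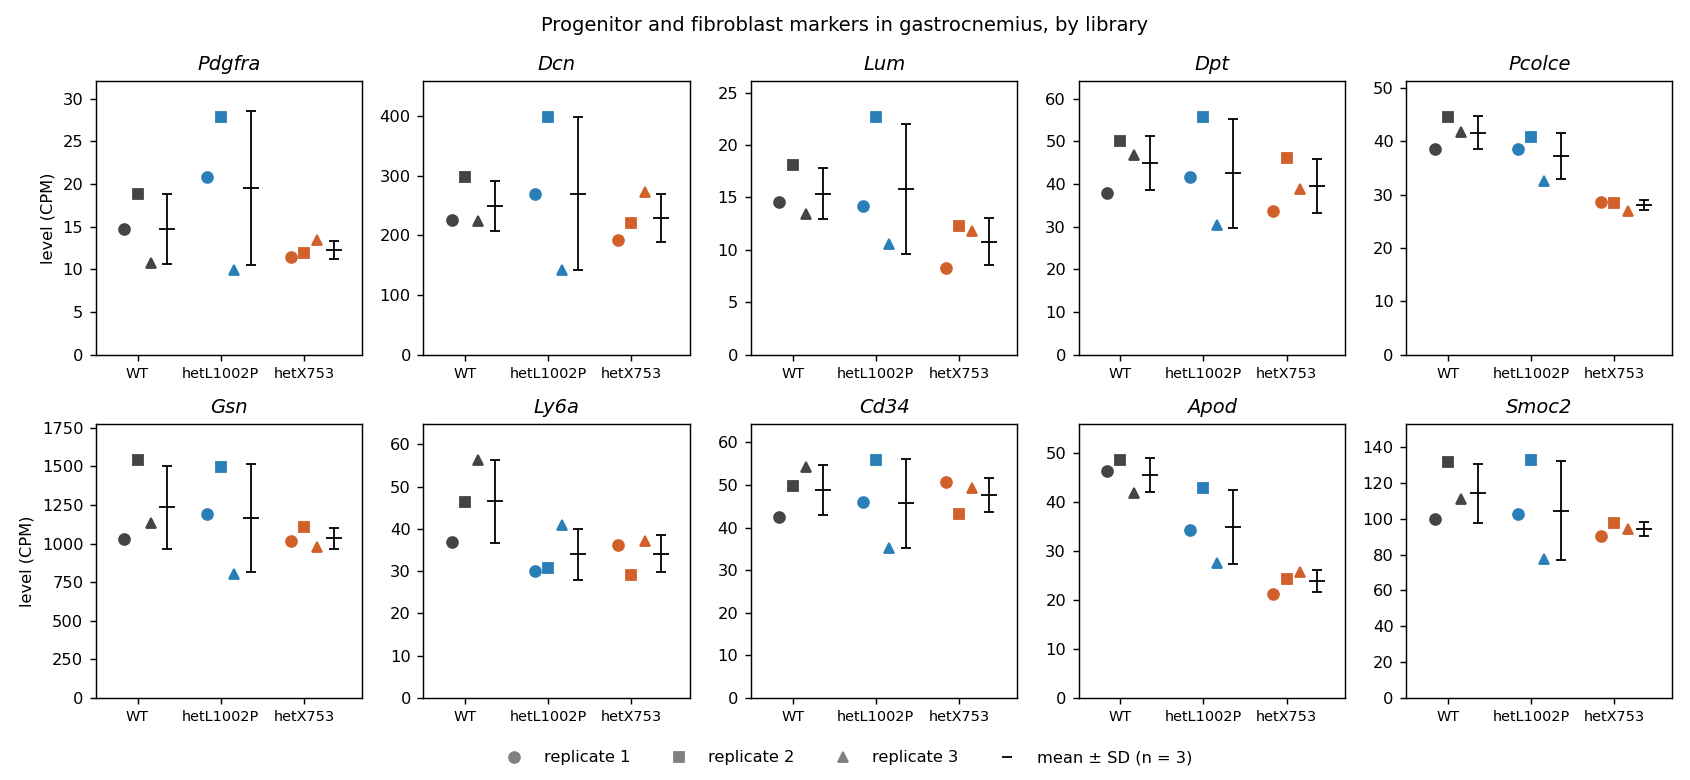
Level of each of the 10 markers in CPM (vertical axes, from 0) in the 9 libraries, by genotype; symbols stand for replicates 1 to 3 and bars for mean ± SD (n = 3). Apod and Pcolce have all 3 hetX753 libraries below the other 6, while Pdgfra, Dcn, Dpt, Cd34 and Smoc2 reach both their highest and their lowest level within hetL1002P.

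Among the proteoglycans, Lum had 14.6, 18.1 and 13.4 in WT, 14.2, 22.7 and 10.6 in hetL1002P and 8.23, 12.3 and 11.8 CPM in hetX753. The hetX753 libraries lay below those of WT but not below all of hetL1002P, and the log2 fold change against WT was -0.51 (SE 0.26, adjusted p = 0.284). Its neighbour Dcn had 226, 298 and 224 in WT, 269, 399 and 142 in hetL1002P and 193, 221 and 273 CPM in hetX753. The 3 genotypes overlapped, at log2 -0.12 (SE 0.30) in hetX753 and 0.12 (SE 0.30) in hetL1002P against WT. Dpt, which binds decorin, had 37.9, 50.2 and 46.8 in WT, 41.6, 55.8 and 30.3 in hetL1002P and 33.7, 46.1 and 38.8 CPM in hetX753. It overlapped too, at log2 -0.18 (SE 0.21) in hetX753 and -0.08 (SE 0.21) in hetL1002P against WT.

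Smoc2 had 99.8, 132 and 111 in WT, 103, 133 and 77.8 in hetL1002P and 90.6, 97.9 and 94.6 CPM in hetX753. The hetX753 libraries lay just below those of WT, at log2 -0.28 (SE 0.18, adjusted p = 0.374). Gsn had 1032, 1542 and 1133 in WT, 1194, 1498 and 802 in hetL1002P and 1014, 1108 and 979 CPM in hetX753, with overlap between all genotypes and log2 -0.26 (SE 0.22, adjusted p = 0.499) in hetX753 against WT.

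The receptor Pdgfra, by which these cells are usually sorted or traced, had 14.7, 18.8 and 10.7 in WT, 20.8, 27.9 and 9.92 in hetL1002P and 11.4, 11.9 and 13.5 CPM in hetX753. In hetL1002P, 2 libraries exceeded every other and the third was the lowest of all 9. The log2 fold change was 0.41 (SE 0.31, adjusted p = 0.627) in hetL1002P and -0.26 (SE 0.32, adjusted p = 0.651) in hetX753 against WT. A direct comparison of hetX753 with hetL1002P gave -0.68 (SE 0.32, adjusted p = 0.630), which became -0.99 (SE 0.16, adjusted p = 0.0304) without both WT 3 and hetL1002P 3.

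The surface antigens Ly6a and Cd34 are both also present on endothelium. Ly6a had 36.8, 46.3 and 56.3 in WT, 30.1, 30.8 and 40.9 in hetL1002P and 36.1, 29.1 and 37.1 CPM in hetX753. Both carriers averaged below WT with overlap, at log2 -0.44 (SE 0.18, adjusted p = 0.202) in hetX753 and -0.45 (SE 0.18, adjusted p = 0.579) in hetL1002P. In alternative fits that left out no single library or replicate number, these ran from -0.46 to -0.15 and from -0.47 to -0.22. Ly6a has the shortest transcript of the markers (0.955 kb) and was highest in WT 3. Cd34 had 42.6, 49.7 and 54.3 in WT, 46.0, 55.9 and 35.1 in hetL1002P and 50.6, 43.1 and 49.2 CPM in hetX753, with log2 -0.04 (SE 0.17) in hetX753 against WT. The 12 endothelial markers, of which 4 lay below 0 and 0 passed in hetX753 against WT, summed to 324 to 405 in WT, 299 to 402 in hetL1002P and 386 to 394 CPM in hetX753. Their part in the levels of Ly6a and Cd34 was not tested.

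As a list, all 10 markers had a log2 fold change below 0 in hetX753 against WT, with a median of -0.27, where 49.6% of all genes tested lay below 0 with a median of 0.00. The count was 9 of 10 without both WT 3 and hetL1002P 3 and 8 of 10 with library totals alone, which moved the median of all genes to 0.12 and that of the markers to -0.15. The groups did not overlap for 4 of the 10 (Apod, Pcolce, Lum and Smoc2, all lower), against 15.8% of all genes in that direction. At an unadjusted p under 0.05 stood 3 of 10 (Apod, Pcolce and Ly6a), where the share of all genes was 20.9%.

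In hetL1002P against WT, 7 of 10 markers lay below 0 (48.1% of all genes did), with a median of -0.09 against 0.01 for all genes, and 3 of 10 without both WT 3 and hetL1002P 3. None passed, and 0% of all genes tested did in this edgeR fit, with 7.96% at an unadjusted p under 0.05. DESeq2 called 5 genes (0.0385%), 0 of them markers. The groups overlapped for all 10 markers, where 3.77% of genes lay wholly lower and 5.67% wholly higher. In a fit of these 2 genotypes blocked by replicate number, Apod (log2 -0.42, adjusted p = 0.0433) and Ly6a (log2 -0.46, adjusted p = 0.0330) passed among 635 genes (5.01%) called by edgeR. Neither passed when any 1 replicate number was left out of that fit (adjusted p 0.129 to 0.339 for Apod and 0.0712 to 0.341 for Ly6a) or when the length and GC trend was also removed (0.238 and 0.317).

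Between the carriers, 8 of 10 markers had a log2 fold change below 0 in hetX753 against hetL1002P (52.6% of all genes did), with a median of -0.21 against -0.01 for all genes. None passed, where 0.115% of genes did (edgeR). Apod (log2 -0.55, SE 0.16, adjusted p = 0.316) and Pcolce (log2 -0.41, SE 0.12, adjusted p = 0.315) were the 2 whose groups did not overlap, against 6.98% of genes in that direction. Without both WT 3 and hetL1002P 3, Apod (log2 -0.70, adjusted p = 0.0374), Pcolce (log2 -0.50, adjusted p = 0.0492) and Pdgfra passed, where edgeR called 0.722% of genes. The comparisons share libraries in pairs and are not independent of each other.

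**Figure D2:**
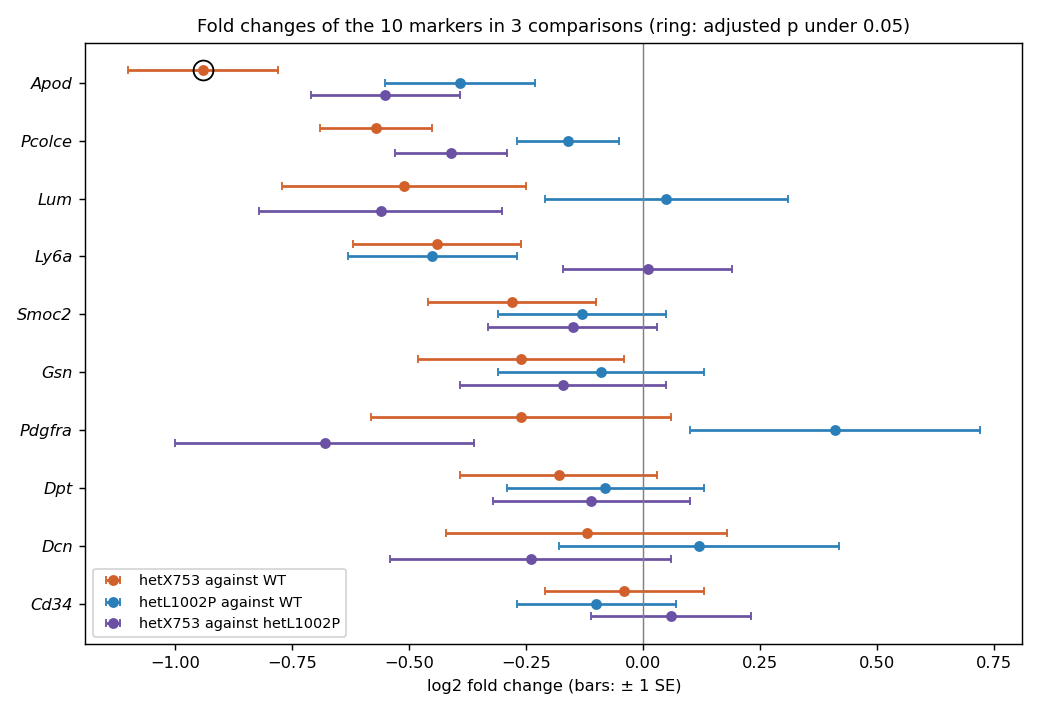
Log2 fold change (horizontal axis, ± 1 SE) of the 10 markers in the 3 comparisons of genotypes, from the edgeR fit of all 9 libraries; a ring marks adjusted p under 0.05. Apod in hetX753 against WT, at -0.94, is the 1 ringed value, and Pdgfra is the marker with the highest value in hetL1002P against WT (0.41).

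The summed level of the 10 markers was 1589, 2248 and 1734 in WT, 1793, 2306 and 1209 in hetL1002P and 1488, 1622 and 1550.2 CPM in hetX753. Both the highest and the lowest library belonged to hetL1002P. Without hetL1002P 3, the lowest, the others of that genotype held 1793 and 2306 CPM. The hetX753 libraries lay close together, with 1488 and 1550.2 CPM below every WT library and 1622 CPM within the range of WT. Gsn alone made up 63.2% to 68.6% of this sum. Without it the sum was 621 ± 76.8 in WT, 604 ± 201 in hetL1002P and 519.6 ± 49.0 in hetX753, in CPM (SD, n = 3 each), so that hetX753 stood at 83.6% of WT with or without Gsn. The gap leaned on WT 2, the highest WT library. Without WT 2 the markers' median log2 fold change in hetX753 against WT was -0.13, where it was -0.27 with all libraries.

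Library hetL1002P 2 held the highest level of 6 of the 10 markers and hetL1002P 3 the lowest level of 6. The coefficient of variation within hetL1002P had a median of 28.1% over the markers, from 11.5% for Pcolce to 47.5% for Dcn, against 16.7% over all genes tested. In WT the medians were 15.1% and 15.4%, and in hetX753 9.21% and 11.3%. The spread in hetL1002P was narrower without hetL1002P 3, a choice made after seeing the data, both for the markers and for all genes. Over the other 2 libraries the median was 16.8% over the markers and 7.61% over all genes, with 20.7% for Pdgfra, 27.4% for Dcn and 3.92% for Pcolce. Of the 10 markers, 8 still lay above the all-gene median, against 9 with hetL1002P 3. WT without WT 3 also had a median of 16.8% over the markers, against 8.21% over all genes. WT 3, which shared the low end of the first component with hetL1002P 3, held the lowest level of none of the markers and the highest of Ly6a.

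**Figure D3:**
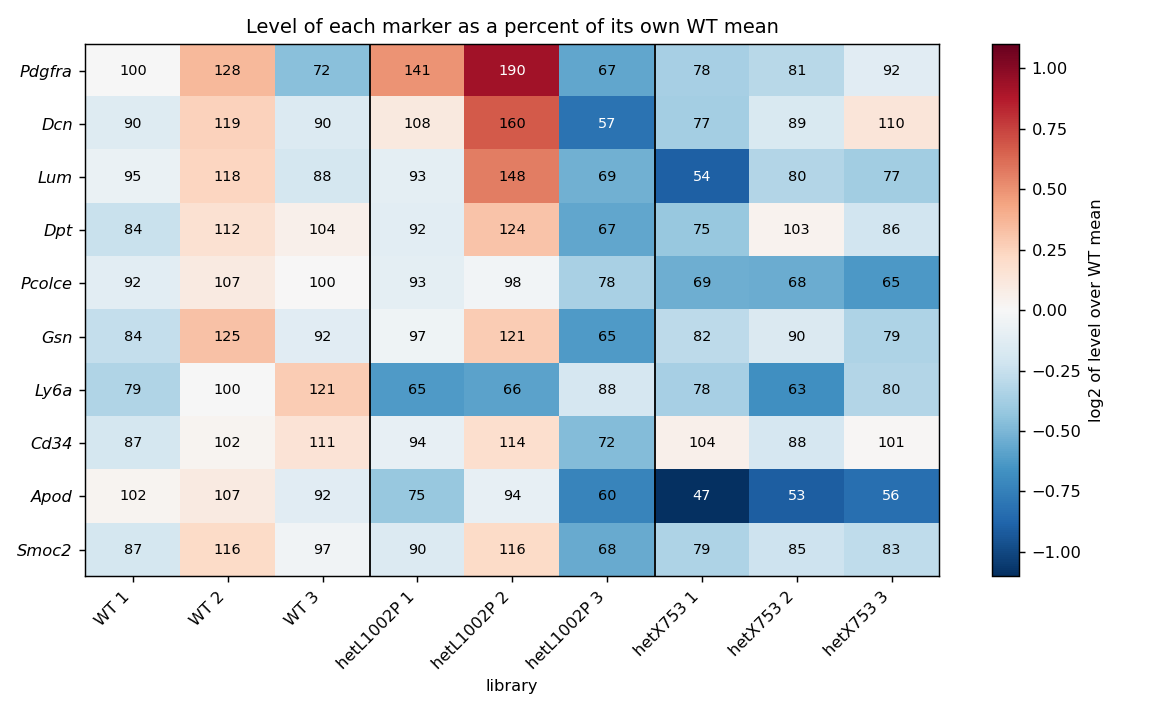
Level of each marker (rows) in each library (columns) as a percent of that marker's WT mean, with the log2 of the ratio as colour. In hetL1002P 2 and hetL1002P 3 most markers move together, Pdgfra from 189.6 to 67.3%, and in hetX753 Apod is the lowest row in each library, at 46.7 to 56.4%.

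In the hetX753 libraries Apod was lower, relative to WT, than the other markers. As a percent of its WT mean Apod stood at 46.7%, 53.4% and 56.4% in the hetX753 libraries, where the median of the other 9 markers was 77.5%, 85.4% and 82.6%. All 9 others stood higher in each of these libraries. In the hetL1002P libraries Apod stood at 75.0%, 93.8% and 60.5%, with medians of 92.8%, 121% and 67.9% and 1 of the 9 lower in each. In WT 1, at 102%, it stood above all 9 others, and 2 and 3 of them were lower in WT 2 and WT 3.

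Across the 9 libraries most markers varied together. The correlation of each marker's log2 level with the mean of the other 9 (standardised) was highest for Smoc2 (r = 0.977, rho = 0.983), Gsn (r = 0.908, rho = 0.883) and Lum (r = 0.870, rho = 0.900). It was lowest for Ly6a (r = 0.0215, rho = 0.133) and Cd34 (r = 0.619, rho = 0.633). Without the 2 libraries farthest from the median, hetL1002P 2 and hetL1002P 3, r was 0.958 for Smoc2, 0.863 for Pcolce (0.749 over all 9), 0.834 for Lum, 0.808 for Gsn and 0.690 for Dpt. It was then 0.494 for Ly6a, 0.421 for Pdgfra (0.713 over all 9) and 0.181 for Cd34, so that Smoc2 stayed highest while the order of the others rested in part on those libraries. For Dcn and Apod the farthest libraries were hetL1002P 2 and WT 2, and r went from 0.817 to 0.631 and from 0.768 to 0.653. These values describe 9 libraries that share genotypes and scaling, and no p is given for them.

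The 5 genes whose level over the 9 libraries was most like the mean of the markers, among 11101 genes averaging at least 1 CPM, were Emr1 (r = 0.965), Serping1 (r = 0.963), Vit (r = 0.955), Ms4a4d (r = 0.950) and C1s1 (r = 0.942). Emr1, listed under the older symbol of Adgre1, encodes the macrophage antigen F4/80. Serping1 encodes the C1 inhibitor and C1s1 a complement protease. Their r without hetL1002P 2 and hetL1002P 3 was 0.889 to 0.933.

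A further 22 fibroblast genes were listed for their function. In hetX753, 17 of them were below 0 against WT, with a median of -0.35, and 0 passed in either direction (edgeR); 5 stood at an unadjusted p under 0.05, a share near the 20.9% of all genes. Their sum was 1123 to 1309 in WT, 789 to 1565 in hetL1002P and 846 to 1062 CPM in hetX753, so that hetX753 and WT did not overlap. The 3 with the smallest p were Mgp, an inhibitor of matrix calcification (log2 -1.01, SE 0.21, adjusted p = 0.0744), Igfbp6, an IGF-binding protein (log2 -0.59, adjusted p = 0.121), and Thy1, the surface antigen CD90 (log2 -0.58, adjusted p = 0.150). In hetL1002P 8 of the 22 were below 0, median 0.15. Large parts of the list's sum were Col1a1, Col1a2 and Col3a1. In hetX753 against WT these 3 stood at log2 -0.58 (adjusted p = 0.290), -0.56 (0.315) and -0.42 (0.369).

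The genes of progenitor states had 10 of 17 tested members below 0 in hetX753 against WT, median -0.15, and 0 passed. Pi16, of the progenitors around vessels, stood at log2 -0.67 (adjusted p = 0.147), and Osr1, a transcription factor of muscle connective tissue, at -0.84 (adjusted p = 0.167). Sema3c, a secreted semaphorin, stood at 0.65 (adjusted p = 0.151). Among the 6 PDGF ligands and receptors, Pdgfra included, 3 were below 0, 0 passed and the median was -0.12. The ligand Pdgfb stood at log2 -0.68 (SE 0.15, adjusted p = 0.0842), from 29.1 ± 4.57 CPM in WT to 18.2 ± 2.61 CPM in hetX753 (SD, n = 3 each), and Pdgfc at -0.56 (adjusted p = 0.270) and Pdgfd at 0.71 (adjusted p = 0.435). The sister receptor Pdgfrb stood at 0.15 (adjusted p = 0.678).

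Genes of collagen processing and fibril assembly had 12 of 19 below 0 in hetX753 against WT, median -0.12, and 0 passed. P4ha2, a collagen prolyl hydroxylase subunit, stood at log2 -0.37 (adjusted p = 0.173), the crosslinking enzyme gene Loxl1 at -0.39 (adjusted p = 0.188) and its relative Lox at 0.48 (adjusted p = 0.446). Of 9 tested genes of fibrosis and activation, 4 were below 0, median 0.09, and 0 passed. Col8a1 stood at log2 0.66 (adjusted p = 0.148) and Acta2 at 0.37 (adjusted p = 0.380). The rise of Acta2 lay in hetX753 2, with 48.0, 102 and 51.9 CPM in hetX753 and 52.3, 57.0 and 46.4 CPM in WT. In hetL1002P against WT and between the carriers, 0 members of these lists passed either.

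Markers of other cells were read in the same libraries. All 12 macrophage markers were below 0 in hetX753 against WT, median -0.38, and their sum was 85.5 to 144 in WT, 79.5 to 157 in hetL1002P and 90.0 to 96.5 CPM in hetX753. Like the stromal markers, this sum was highest in hetL1002P 2 and lowest in hetL1002P 3. Of the 12, Aif1 had the smallest p (log2 -1.41, adjusted p = 0.133), at a low level of 0.664 ± 0.191 CPM in WT (SD, n = 3). Tendon and myotendinous junction markers had 7 of 10 below 0, median -0.31, with sums of 245 to 259.7 CPM in WT and 154 to 274 CPM in hetX753. Scx had the smallest p of them (log2 -0.75, adjusted p = 0.0798). Smooth muscle and pericyte markers had 0 of 10 below 0, median 0.30, with sums of 269 to 397 CPM in WT and 421 to 566 CPM in hetX753. The ends of these ranges were WT 3 (269 CPM) and hetX753 2 (566 CPM), with 421 and 439 CPM in hetX753 1 and 3. Abcc9 alone went from 129 ± 33.1 CPM in WT to 187 ± 5.13 CPM in hetX753 (SD, n = 3 each; adjusted p = 0.185). Of the fibre markers, 10 of 15 were below 0, median -0.29, with sums of 291141 to 326897 CPM in WT and 245649.7 to 266997 CPM in hetX753. The 3 with the smallest p went both ways: Acta1 (log2 -0.49, adjusted p = 0.126), Neb (0.83, 0.127) and Tnnc2 (-0.66, 0.136). WT 3 stood apart within WT for Neb (1523 CPM, with 2988 and 2687 CPM in WT 1 and 2). It did so in the other direction for Tnnc2 (27000.4 CPM, with 18340.1 and 19102 CPM). Schwann and perineurial markers, cells that also express Apod, had 7 of 10 below 0, median -0.13, with sums of 136 to 251 CPM in WT and 179 to 209 CPM in hetX753. None of these 5 lists had a member that passed, and none had a marker at 0 in all libraries. Their part in the levels of the stromal markers was not tested.

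**Figure D4:**
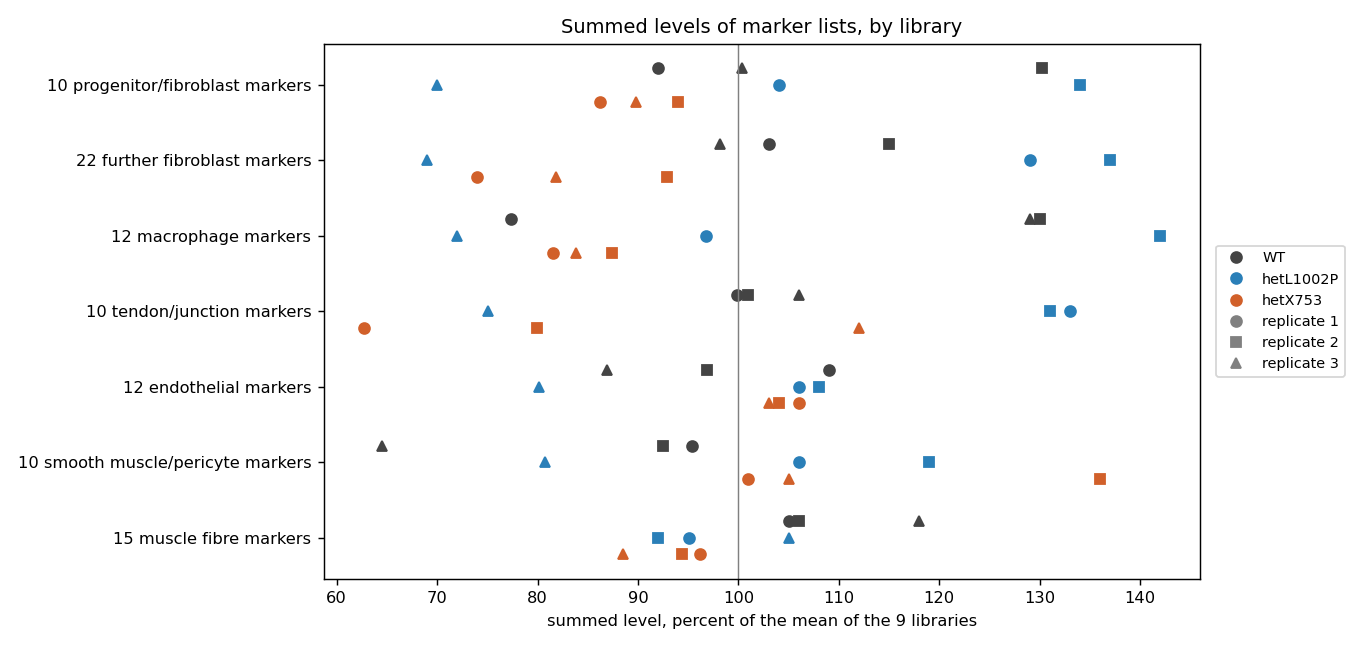
Summed level of 7 marker lists (rows) in the 9 libraries as a percent of each list's mean over them (horizontal axis); colours stand for genotypes and symbols for replicates. The 10 stromal markers run from 70.0 to 134%, with both ends in hetL1002P, and for the 22 further fibroblast genes the hetX753 libraries (74.0 to 92.9%) lie below those of WT (98.2 to 115%).

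The remaining lists were satellite cell, adipocyte, lymphocyte and erythroid markers. Of 7 tested satellite cell markers 4 were below 0 in hetX753 against WT, median -0.11. These were Spry1, Sdc4 (log2 -0.50, adjusted p = 0.137), Chodl (-0.14) and Vcam1 (-0.11). Pax7 (log2 0.48), Cdh15 (0.13) and Myf5 (0.12) were above 0, and none of these 3 passed. Just 1 of the 7 passed, where 0.508% of all genes did: Spry1, a signalling inhibitor (log2 -0.86, adjusted p = 0.0450), from 29.9 ± 3.17 CPM in WT to 16.5 ± 0.227 CPM in hetX753 (SD, n = 3 each). The list's sum, of which Spry1 and Sdc4 are parts, was 85.2 to 92.8 CPM in WT and 66.0 to 71.8 CPM in hetX753. Sdc4 went from 24.7 ± 3.21 CPM in WT to 17.5 ± 1.85 CPM in hetX753 (SD, n = 3 each). Like that of Apod, the call of Spry1 was kept in 2 of 9 edgeR fits without 1 library, those without hetL1002P 2 (0.0399) or hetL1002P 3 (0.00635), and was otherwise at an adjusted p of 0.0808 to 0.184. Adipocyte markers, the other fate of these progenitors, had 3 of 9 below 0, median 0.06, and 0 passed. Their sums overlapped, at 636 to 982 CPM in WT and 651 to 974 CPM in hetX753. Lpl alone made up 332 to 505 CPM in WT and 377 to 479 CPM in hetX753. The smallest p were those of Cfd (log2 -0.94, adjusted p = 0.204), Lep (1.65, 0.219) and Retn (-1.37, 0.237). Lep leaned on hetX753 2, with 4.56, 31.3 and 8.54 CPM in hetX753 and 3.52, 7.18 and 3.53 CPM in WT. Lymphocyte markers, of which 2 of 9 had enough counts to be tested, summed to at most 4.05 CPM in any library, and 4 of the 5 erythroid markers, the globin genes, were listed at 0 throughout.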

How the data were processed

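Libraries of gastrocnemius RNA were made with a TruSeq RNA kit, per the labels' protocols, which keeps no strand. The authors deposited whole-number counts per gene symbol for 9 libraries, without normalization. The submitters' processing notes name the mm10 build with featureCounts 1.4.6, Subread, Bowtie2 2.2.6 and TopHat2 2.0.14, without saying which step each served. The annotation they used is not given in the sources. Titles gave the genotypes and replicate numbers.

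Genes were kept by filterByExpr (12989), scaled by TMM and fitted in edgeR 4.0.16 (R 4.3.3; robust quasi-likelihood) with all 9 libraries and no term but genotype, leaving 6 residual degrees of freedom. Benjamini-Hochberg adjustment ran over every gene tested, at a threshold of 0.05, and an adjusted p with no tool named is from this test. Fold changes are of the first genotype over the second, and the SE is the fold change's size over the square root of F. RPKM used the longest GENCODE M21 transcript (94.55% of symbols matched). Likeness to other genes used log2 of CPM plus 0.5. Alternatives were DESeq2 1.42.0, other scaling and filters, a replicate block, a trend on length and GC content (known for 95.7% of genes tested), and fits with libraries left out.

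As a check of pairing, same-numbered libraries of WT and hetL1002P deviated together from their genotype's mean (r = 0.285, 0.360 and 0.516), but those with hetX753 did not (-0.279 to 0.164). Libraries of unlike number had r of -0.454 to 0.198 between WT and hetL1002P. With hetX753 they reached 0.281 (hetL1002P 3 and hetX753 1), just below the lowest same-numbered value of WT and hetL1002P (0.285). The same-numbered values of 0.360 and 0.516 were above those of all other pairs. The labels do not say what the replicate numbers mark. Within genotypes, libraries differed by more than sampling noise (chi-square over its degrees of freedom 15.2 to 69.9). The markers and lists were chosen with earlier results of these data known. All 10 markers are named. Of the fibroblast, progenitor state, PDGF, collagen, fibrosis, fibre, satellite cell and adipocyte lists, members that passed or up to 3 with the smallest p are named. That p is of hetX753 against WT. Of the macrophage, tendon and smooth muscle lists the 1 with the smallest p is named, and of the other lists none by this rule. Bmp1, Pcolce2, Pdgfrb, Col1a1, Col1a2, Col3a1, Lpl and the satellite cell markers that did not pass were chosen after their values were seen. Adgre1 was matched by its synonym Emr1.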

Additional observations from a re-analysis of the deposited data

How the results depend on the processing

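Genes called in hetX753 against WT numbered 66, but 660 with DESeq2, 31 with library totals alone, 254 on the 2 genotypes alone, 340 with WT 3 and hetL1002P 3 both left out, and 0 (without WT 1) to 669 (without hetL1002P 3) in fits without 1 library. In hetL1002P against WT they numbered 0, but 5 with DESeq2, 2 without the filter on low counts, 1 with the length and GC trend removed, 2 with both libraries left out and 0 to 1 without 1 library. The replicate block on those 2 genotypes gave 635, and 1 with the trend also removed. Leaving replicate 1, 2 or 3 out of that block, chosen after seeing the data, gave 30, 4 and 227. Between the carriers they numbered 15, but 138 with DESeq2, 38 without the filter on low counts, 5 on the 2 genotypes alone, 31 with the replicate block, 41 with the trend removed, 95 with both libraries left out, and 0 to 19 without 1 library. The summed level of the markers in hetX753 was 83.6% of WT, 90.8% with library totals alone, 78.0% with each marker weighted the same and 78.0% to 93.5% without 1 library.

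Of 560 log2 values of single markers under alternatives, 493 kept direction and side of the threshold. Those that changed sign follow. With library totals alone they were Dcn (0.00) and Cd34 (0.09) in hetX753 against WT, and Dpt (0.04), Gsn (0.02) and Cd34 (0.02) in hetL1002P against WT. With both libraries left out they were Cd34 in hetX753 against WT (0.05) and between the carriers (-0.10), and Dpt (0.15), Gsn (0.07), Cd34 (0.15) and Smoc2 (0.03) in hetL1002P against WT. With the trend removed they were Dpt in hetX753 against WT (0.00), and Dcn (-0.12), Dpt (0.08) and Gsn (0.00) in hetL1002P against WT. The replicate block on those 2 genotypes turned Dcn (-0.00) and Lum (-0.01), and Dcn (-0.18) and Dpt (0.03) with the trend also removed. Leaving replicate 1 out of that block gave Dcn -0.14 and Lum -0.00, leaving out replicate 2 gave Dcn -0.21 and Lum -0.19, and leaving out replicate 3 gave Dpt 0.14, Gsn 0.09, Cd34 0.14 and Smoc2 0.03.

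In fits without 1 library the ranges that crossed 0 were, in hetX753 against WT, -0.27 to 0.02 for Dcn and -0.13 to 0.05 for Cd34. In hetL1002P against WT they were -0.29 to 0.42 for Dcn, -0.31 to 0.27 for Lum, -0.33 to 0.11 for Dpt, -0.32 to 0.12 for Gsn, -0.28 to 0.06 for Cd34 and -0.35 to 0.04 for Smoc2. Between the carriers they were -0.54 to 0.16 for Dcn, -0.30 to 0.14 for Dpt, -0.38 to 0.06 for Gsn, -0.07 to 0.16 for Ly6a, -0.10 to 0.24 for Cd34 and -0.32 to 0.07 for Smoc2. The cause was not tested. The block of all 9 libraries changed no call of a marker. At most 21 counts of Bub1b per library limit what can be said of it.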
